A study of Mus musculus with 6 samples.

Results

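The respiratory chain of the inner mitochondrial membrane is built from a large set of proteins that are encoded in the nucleus, together with a few that are encoded in mitochondrial DNA. Nuclear genes of the chain were taken by their symbols, as all genes whose symbol starts with Nduf, Uqcr or Atp5, the genes Sdha to Sdhd, the genes named Cox4 to Cox8 plus a letter or i, and Cyc1. This rule gave 90 genes of 19938 tested, of which 43 were assigned to complex I, 4 to complex II, 9 to complex III, 17 to complex IV and 17 to complex V. The assignment follows the prefix, so Ndufa4, which is now known as a subunit of complex IV, and Ndufa4l2 stand with complex I, and Cox7a2l, which is known for joining complexes III and IV into supercomplexes, stands with complex IV. The rule uses no measured value.

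RNA came from the granule cell layer of the dentate gyrus (DG), which was cut by laser capture microdissection from cryosections stained with cresyl violet. The 3 control and 3 mutant samples were hybridized to 1 whole-transcript array each. In the mutants both alleles of Bcl11b (also called Ctip2), a zinc finger transcription factor of granule cells, were floxed (Bcl11b flox/flox), and Cre was expressed from tetO-Cre under a CaMKIIα-tTA transactivator. All mice received doxycycline in the drinking water until 2 months of age and were killed 4 weeks after it was withdrawn, which lets the transactivator switch on Cre. The genotype of the tet-off controls is given only as control in the sources used here, so whether they carried tTA, tetO-Cre or a floxed allele is not known. The CaMKIIα promoter is active in excitatory neurons of the whole forebrain, so other forebrain neurons that express Bcl11b, such as those of CA1 and the neocortex, can lose it too. A change that starts in granule cells cannot be told apart from a response to such neurons. No source used here says that 1 sample is 1 animal, so the p-values cover spread that may in part be technical.

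As background, complex I (NADH dehydrogenase) takes electrons from NADH, and complex II (succinate dehydrogenase) takes them from succinate. Both pass them through ubiquinone to complex III (cytochrome bc1), which hands them to cytochrome c and on to complex IV (cytochrome c oxidase), where oxygen is reduced. Complexes I, III and IV pump protons, and complex V (ATP synthase) uses the gradient to make ATP. Neurons draw most of their ATP from this pathway and spend much of it on ion pumping at synapses. The nuclear genes of the chain are known to share binding sites for NRF1, for GABPA (an ETS family factor, also called NRF2) and for YY1 in their promoters, and they are coactivated through Ppargc1a (PGC-1α).

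Promoter sequence is shown for 6 genes, since the values below turn on genes that fell and genes that did not, and both kinds carried these motifs. RefSeq promoter windows (GRCm38.p6, from 250 bases before to 50 bases after the annotated start, 300 in all) were at hand for 73 of the 90 genes, with 78 windows. Each sequence is the 100 bases before the start, 5′ to 3′ on the strand of the gene, and capitals mark matches that lie wholly in these bases, on either strand, to GCGCANGCG for NRF1 or to CCGGAAG for the ETS family. The genes Atp5k, Ndufs6, Uqcr11, Ndufa11 and Uqcr10 were lower in the mutant and Sdha was not called. They were chosen after their values were seen.
Atp5k (chr5:108434400-108434499, minus strand): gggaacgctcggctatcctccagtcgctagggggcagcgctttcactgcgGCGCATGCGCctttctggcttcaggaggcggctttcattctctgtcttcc
Ndufs6 (chr13:73328483-73328582, minus strand): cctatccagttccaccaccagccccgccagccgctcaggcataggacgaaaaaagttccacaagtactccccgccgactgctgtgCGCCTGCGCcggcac
Ndufa11 (chr17:56717662-56717761, plus strand): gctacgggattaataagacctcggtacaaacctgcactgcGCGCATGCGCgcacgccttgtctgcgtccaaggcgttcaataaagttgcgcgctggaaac
Uqcr11 (chr10:80406822-80406921, minus strand): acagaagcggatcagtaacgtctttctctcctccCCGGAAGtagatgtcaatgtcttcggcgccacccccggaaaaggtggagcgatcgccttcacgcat
Sdha (chr13:74350241-74350340, minus strand): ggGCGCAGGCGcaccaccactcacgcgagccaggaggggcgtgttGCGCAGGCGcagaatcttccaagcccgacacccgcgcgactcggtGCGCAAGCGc
Uqcr10 (chr11:4704345-4704444, minus strand): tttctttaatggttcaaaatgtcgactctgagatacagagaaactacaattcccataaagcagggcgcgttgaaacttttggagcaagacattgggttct
In Atp5k and Ndufa11 the stretch reads as the NRF1 motif on both strands. Sdha held 3 separate NRF1 matches, and Uqcr10 held no match to either motif in the bases shown.

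Over all 78 windows, 28.2% held the NRF1 motif, 23.1% the ETS motif and 15.4% ATGGCGG, the motif of YY1. Over all 32851 windows of the table these shares were 6.25%, 8.86% and 4.05%, and over the 21262 windows of protein-coding genes 8.58%, 11.6% and 5.24%. At least 1 of the 3 motifs lay in 55.1% of the windows of the respiratory chain genes and in 16.6% of all windows. Windows of genes lower in the mutant and windows of genes not called held them at close shares, with 53.6% of 28 and 56% of 50 windows. By complex, at least 1 motif lay in 57.5% of the 40 windows of complex I, in 100% of the 3 of complex II, which had no called gene, in 60% of the 5 of complex III, in 25% of the 12 of complex IV and in 61.1% of the 18 of complex V. The letters TGGGC, which the study's text gives as a putative Bcl11b site, lay in 70.5% of the windows, in 71.4% of those of lower genes, in 70% of those of genes not called and in 56.9% of all windows. These are matches of letters and not measured binding sites. No window held overlapping matches of different motifs.

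The deposited values are log2 expression, on which equal differences are equal ratios, and a gene is called lower or higher where limma's adjusted p was under 0.05. Array medians lay between 6.29 and 6.36. Bcl11b itself fell by 1.58 on the log2 scale in the mutant, from a mean of 10.42 (SE of the change 0.099, limma adjusted p = 2.6e-05), the direction that the labels give. Prox1, a defining transcription factor of granule cells, had a mean of 11.65 in controls and 11.60 in mutants, while 5 of the 7 granule cell markers measured were lower and 1 was higher. Over all genes, 5.93% were called lower and 9.23% higher, and the median change was -0.0027. Control 1 lay nearer to the mutants than the other controls did in most of the 90 genes, so their counts are given with and without it.

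Of the 90 genes, 33 (36.7%) were lower in the mutant, 0 were higher and 57 were not called. At an unadjusted limma p under 0.05, 49 were lower and 0 higher, against 2312 lower and 3107 higher of all 19938 genes. The median change of the 90 genes was -0.19, which corresponds to 87.5% of the control level. Their changes ranged from -0.51 for Ndufs6 to 0.12 for Ndufaf1. In all, 80 genes had a change below 0 and 10 a change above 0. Every mutant array lay below every control array for 56 genes (62.2%), against 14.6% of all genes, and above every control array for 0 genes, against 17% of all genes. The changes were small on the fold scale, and the lowest mutant level was 70.1% of control. Most of these probe sets were bright, with 69 of the 90 at or above a mean signal of 9.05, where 10.9% of 4985 genes were called lower and the median change was 0.018.

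**Figure D1:**
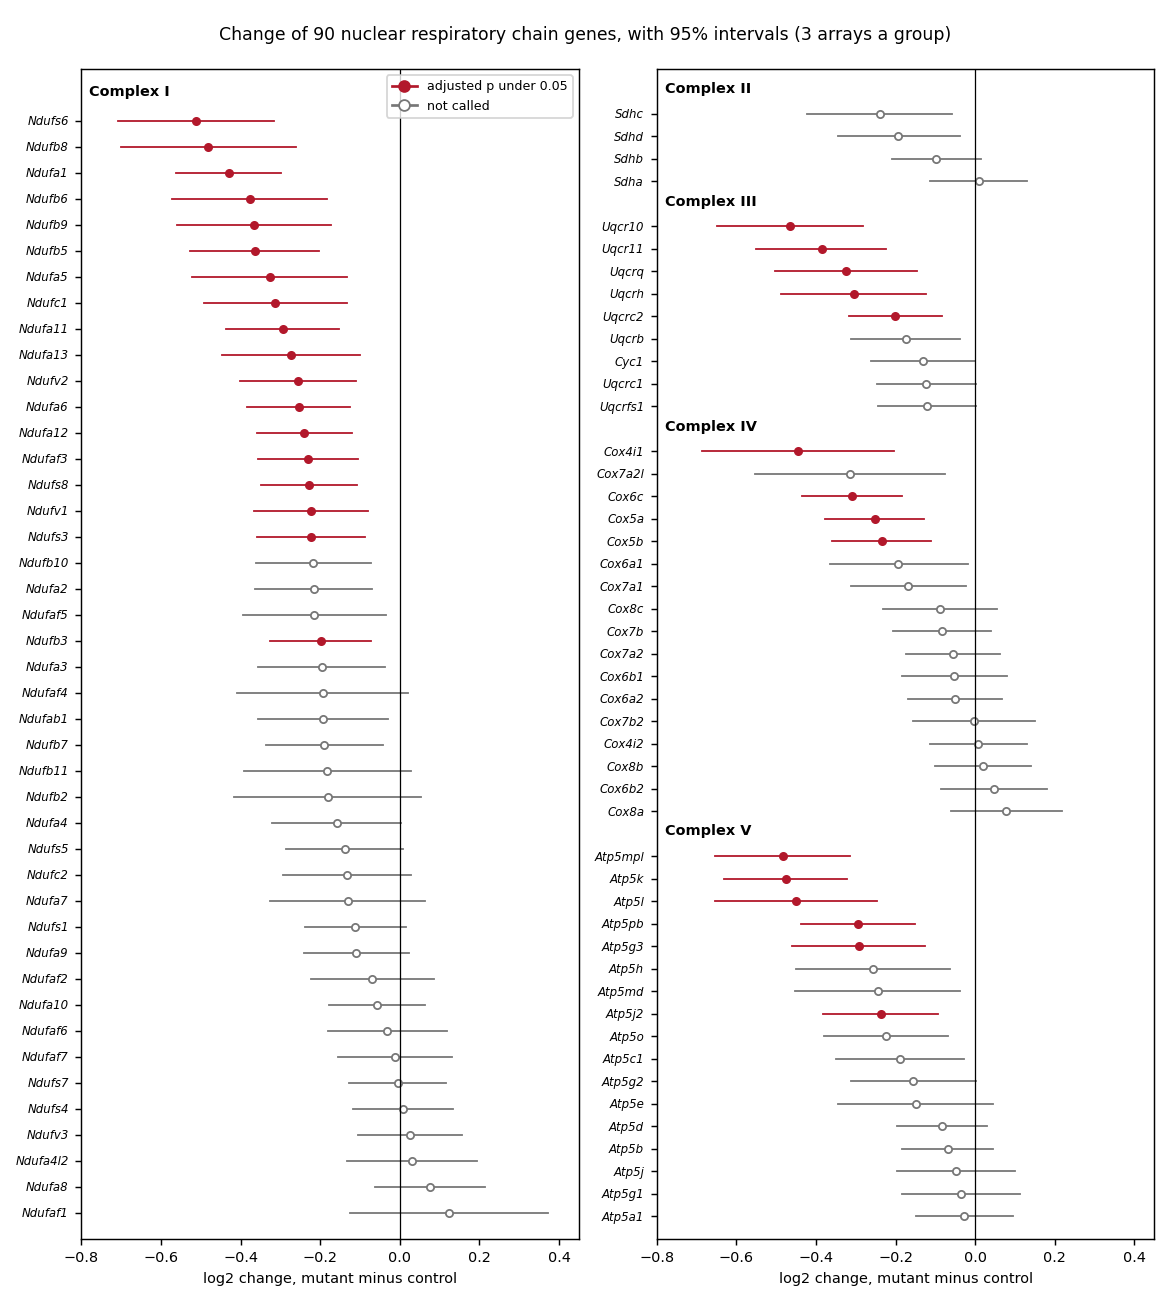
Log2 change (mutant minus control) of each of the 90 genes by complex, with the 95% interval of the limma fit over 3 control and 3 mutant arrays. Filled red points mark the 33 genes called lower and open grey points the 57 not called. Nearly all points of complexes I, III and V lie left of 0, and those of complex IV reach from -0.45 to 0.078.

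The shift did not lie evenly on the arrays. Relative to the mean of each gene over the 6 arrays, the 90 genes averaged 0.022 in control 1, 0.10 in control 2 and 0.15 in control 3, and -0.13, -0.099 and -0.053 in mutants 1, 2 and 3. Control 1 was the lowest control for 67 of the 90 genes (74.4%), against 37.3% of all genes. The sample titles also hold a number whose meaning no source gives, and in the order of these numbers control 1 comes first, the mutants follow it closely, and controls 2 and 3 come last. No batch is named, and whether what these numbers mark has a part in the difference between the groups was not tested. The median change was -0.10 against control 1 alone and -0.24 against controls 2 and 3. The direction was thus the same against either, and its size was not. All 3 mutants lay below control 1 for 62 of the 90 genes, against 6285 of all 19938 genes tested. The 33 genes called lower were among the 62, but they were picked by a contrast that includes control 1. Without control 1 the count of lower genes was 49. It was 10 without control 2, 16 without control 3, and 10, 12 and 21 without mutants 1, 2 and 3. The share of all genes called lower moved too. It was 8.68%, 3.52% and 5.16% without controls 1, 2 and 3, and 3.4%, 3.43% and 3.73% without mutants 1, 2 and 3. With each array left out in turn, 9 genes stayed called: Ndufs6, Ndufa1 and Ndufb5 of complex I, Uqcr10 and Uqcr11 of complex III, Cox6c of complex IV, and Atp5mpl, Atp5k and Atp5l of complex V.

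**Figure D2:**
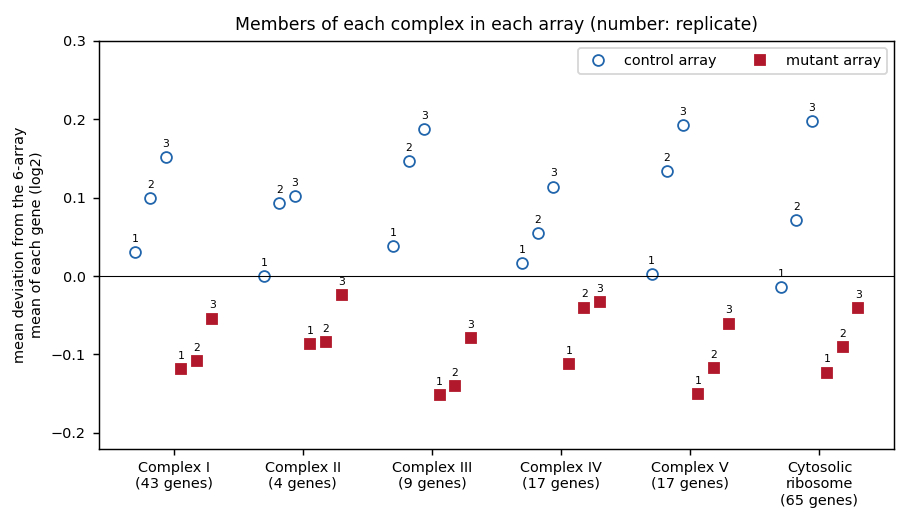
Mean deviation (log2) of the genes of each complex, and of 65 cytosolic ribosomal protein genes, from each gene's mean over the 6 arrays, with 1 point per array (open circles control, filled squares mutant) and the replicate number beside it. Control 1 lies lowest among the controls in every group and all mutants lie below it.

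Complex I had the largest number of lower genes, 18 of 43 (41.9%), with a median change of -0.20. The count was 25 without control 1 and lay between 4 and 25 over the arrays left out. Of its 6 core subunits, which carry the flavin and the iron-sulphur clusters that conduct electrons, 4 were lower, with a median change of -0.22. Ndufv1, which binds NADH, had values of 10.88, 11.05 and 11.00 in controls and 10.74, 10.70 and 10.81 in mutants, so the groups did not overlap (change -0.22, SE 0.063, limma adjusted p = 0.045). Its partner in the NADH-oxidizing module, Ndufv2, which holds an iron-sulphur cluster, fell from 11.59, 11.73 and 11.80 to 11.45, 11.45 and 11.46 (change -0.26, adjusted p = 0.028). Ndufs3 and Ndufs8 of the ubiquinone-reducing module fell by 0.22 and 0.23. The other core subunits were Ndufs1, at -0.11, and Ndufs7, which holds the cluster next to ubiquinone, at -0.0056 with an interval from -0.13 to 0.12. Neither was called. Ndufs7 had nearly the same mean in both groups (12.32 and 12.31), while the 4 lower core subunits did not overlap between groups.

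Accessory subunits surround the core and serve its assembly and stability. Of 29 accessory subunits under the Nduf prefix, 13 were lower and the median change was -0.20. Ndufs6, a zinc-binding subunit of the matrix arm, showed the largest fall of all 90 genes, with 9.38, 9.52 and 9.67 in controls and 8.93, 9.13 and 8.97 in mutants. Its change was -0.51 (SE 0.087, adjusted p = 0.0045), with mutants at 70.1% of control. Ndufa1, a small membrane subunit encoded on the X chromosome, had the smallest p of the 90 genes. It measured 9.01, 9.14 and 9.12 in controls and 8.70, 8.60 and 8.68 in mutants (change -0.43, SE 0.058, adjusted p = 0.0014). For Ndufa1 control 1 lay close to the other controls, and the gap between the groups was larger than the spread within either.

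Among subunits of the proton-pumping membrane arm, Ndufb8 measured 10.23, 10.49 and 10.61 in controls and 9.87, 9.97 and 10.04 in mutants (change -0.48, SE 0.097, adjusted p = 0.010). Ndufb5 measured 11.01, 11.18 and 11.27 in controls and 10.76, 10.77 and 10.83 in mutants (change -0.36, SE 0.072, adjusted p = 0.0095). In both, control 1 was the lowest control and still lay above every mutant. Of the 9 genes with the Ndufb prefix, whose products sit in this arm, 5 were lower (Ndufb8, Ndufb6, Ndufb9, Ndufb5 and Ndufb3), and all 9 had a change between -0.48 and -0.18. Ndufb6 fell by 0.38 and Ndufb9 by 0.37. Ndufc1 and Ndufa11, also of the membrane arm, fell by 0.31 and 0.29, and Ndufa13 (GRIM-19), which spans the membrane domain into the matrix arm, by 0.27. In the matrix arm, Ndufa5, Ndufa6 and Ndufa12 fell by 0.33, 0.25 and 0.24. Ndufb3, Ndufa13 and Ndufv1 had the largest p of the 33 lower genes, between 0.043 and 0.045 after adjustment, lay outside the naming rule and were named after their values were seen.

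Other accessory subunits lay near 0 and were not called. Ndufs4, a matrix arm subunit whose loss is known to cause Leigh-like disease in mice, had means of 11.75 in controls and 11.76 in mutants, with a change of 0.0086 and an interval from -0.12 to 0.13. Ndufv3 had a change of 0.025 and Ndufa8, a twin CX9C protein of the intermembrane space side, a change of 0.076. Ndufa4 measured 11.19, 11.28 and 11.38 in controls and 11.11, 11.04 and 11.23 in mutants, and its groups overlapped (change -0.16, adjusted p = 0.19). Of the 7 assembly factors with the Ndufaf prefix, which build the complex and leave it, 1 was lower and the median change was -0.069. This was Ndufaf3, which serves the assembly of the ubiquinone module (change -0.23, adjusted p = 0.023). The remaining assembly factors reached from -0.22 for Ndufaf5 to 0.12 for Ndufaf1, the largest increase of the 90 genes. Ndufaf1 measured 9.25, 8.86 and 8.94 in controls and 9.24, 9.21 and 8.98 in mutants, so the groups overlapped and its adjusted p was 0.54.

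**Figure D3:**
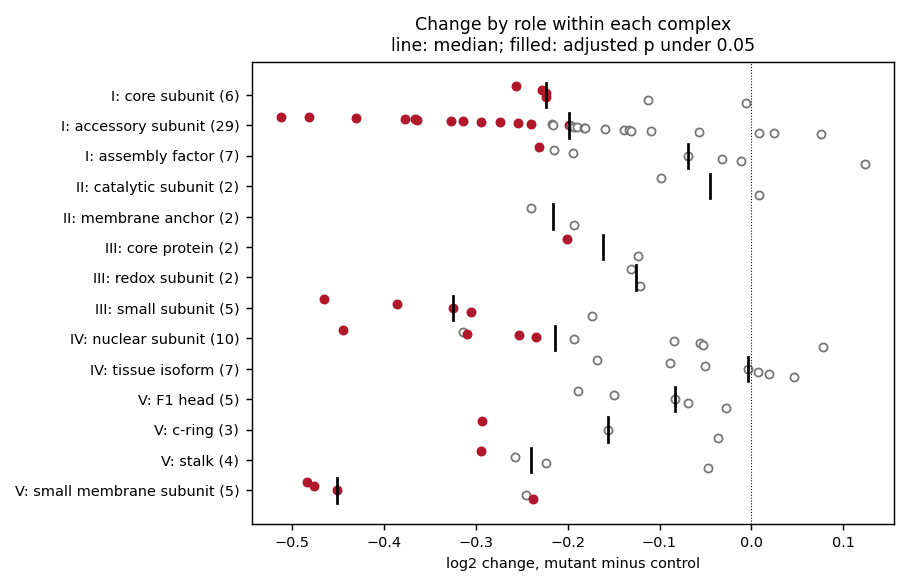
Log2 change (mutant minus control) of genes by their role within each complex, with the number of genes in parentheses. Filled red points are called lower, open points are not called, and the vertical line is the median of the role. In complex V, F1 head includes the central stalk genes, and stalk means the peripheral stalk. Small subunits of complexes III and V lie furthest left, at medians of -0.33 and -0.45, and tissue isoforms of complex IV lie around 0; Ndufa4l2 is left out.

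In complex II, the only complex without a subunit from mitochondrial DNA, 0 of 4 genes were called and the median change was -0.15. At an unadjusted limma p under 0.05, 2 were lower, and 2 were called without control 1. The methods' t-test with adjustment called 0. The catalytic subunits, which also act in the citric acid cycle, lay at 0.0084 (Sdha, the flavoprotein) and -0.098 (Sdhb, the iron-sulphur protein). Sdha measured 11.86, 11.84 and 11.76 in controls and 11.84, 11.80 and 11.85 in mutants, with an interval of the change from -0.11 to 0.13. The membrane anchors, which hold the heme and the ubiquinone site, lay lower, with Sdhc at -0.24 (adjusted p = 0.083) and Sdhd at -0.19 (adjusted p = 0.098). Sdhc measured 10.65, 10.81 and 10.90 in controls and 10.45, 10.53 and 10.65 in mutants. Its groups overlapped by a narrow margin, since mutant 3 lay at the level of control 1.

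In complex III, 5 of 9 genes were lower (55.6%), and for all 9 every mutant array lay below every control array. The median change was -0.20 and the count was 2 to 5 over the arrays left out. The small subunits, which wrap the catalytic core, carried most of the calls, with 4 of 5 lower and a median change of -0.33. Uqcr10 measured 9.82, 9.91 and 10.09 in controls and 9.41, 9.44 and 9.58 in mutants (change -0.47, SE 0.081, adjusted p = 0.0053). Uqcr11 measured 11.33, 11.53 and 11.57 in controls and 11.08, 11.06 and 11.14 in mutants (change -0.39, SE 0.072, adjusted p = 0.0074). In both genes the lowest control stood clear of the highest mutant. Uqcrq, which lies near the ubiquinone site, fell by 0.33, and Uqcrh, the hinge protein that helps the contact of cytochrome c1 with cytochrome c, by 0.31. Uqcrb, the other small subunit, had a change of -0.17 (adjusted p = 0.091), while 1 of its 2 further probe sets was called lower (change -0.22, adjusted p = 0.049 in the fit over all probe sets). Of the core proteins, Uqcrc2 fell by 0.20 and Uqcrc1 lay at -0.12 (adjusted p = 0.19). The redox subunits that move electrons were not called and had unadjusted limma p above 0.05, with Cyc1 (cytochrome c1) at -0.13 and the Rieske iron-sulphur protein Uqcrfs1 at -0.12.

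Complex IV had the smallest share of lower genes among the complexes with any, 4 of 17 (23.5%), and a median change of -0.084. The count lay between 1 and 6 over the arrays left out and was 6 without control 1. The 10 nuclear subunits and relatives that are not known as tissue isoforms had 4 lower genes and a median of -0.21. Cox6c measured 13.70, 13.79 and 13.84 in controls and 13.46, 13.46 and 13.47 in mutants (change -0.31, SE 0.055, adjusted p = 0.0059). The mutants lay within 0.01 of one another. Cox4i1, which is required early in assembly, measured 10.81, 11.16 and 11.24 in controls and 10.55, 10.61 and 10.71 in mutants (change -0.45, SE 0.11, adjusted p = 0.023). Here control 1 stood closer to the mutants than to the other controls. Cox5a and Cox5b, peripheral subunits of the matrix side, fell by 0.25 and 0.24. Cox7a2l, with a change of -0.31, did not pass the test (adjusted p = 0.084), while a further probe set of this gene did (change -0.39, adjusted p = 0.038).

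Several subunits of complex IV and related genes occur as pairs of a widely expressed form and a form known from heart, muscle, testis or other tissues. The widely expressed forms of these families differed among themselves. Cox4i1 fell, while Cox6a1 lay at -0.19 (adjusted p = 0.14), Cox7b at -0.084, Cox7a2 at -0.056, Cox6b1 at -0.053 and Cox8a at 0.078. Cox8a measured 12.34, 12.38 and 12.43 in controls and 12.37, 12.49 and 12.53 in mutants, and its groups overlapped. The 8 tissue forms (Cox4i2, Cox6a2, Cox6b2, Cox7a1, Cox7b2, Cox8b, Cox8c and Ndufa4l2) gave 0 calls and a median change of 0.0021, which was -0.062 against control 1 alone. Their mean signal lay between 5.23 and 7.24, with 1 of the 8 above the median of all genes (7.06), so that some may be at background, for which the deposited table has no detection call. Among them Cox7a1 had the lowest change, -0.17, at an adjusted p of 0.12, and Cox6b2 the highest of complex IV's tissue forms, 0.046. No tissue form was called higher, and 1 was lower at an unadjusted limma p under 0.05. Without the tissue forms, 33 of 82 genes were lower and the median change was -0.20.

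In complex V, 6 of 17 genes were lower (35.3%), all 17 had a change below 0, and the median change was -0.22. The count was 11 without control 1 and lay between 3 and 11 over the arrays left out. The F1 part, whose head makes ATP, was taken here with the central stalk genes Atp5c1, Atp5d and Atp5e. It had 0 of 5 genes called and 1, Atp5c1, lower at an unadjusted limma p under 0.05. The median change of the F1 part was -0.083. Atp5b, its catalytic β subunit, measured 13.19, 13.22 and 13.17 in controls and 13.09, 13.15 and 13.13 in mutants, and Atp5a1, the α subunit, had a change of -0.028 with an interval from -0.15 to 0.094. Atp5b did not overlap between groups, but its change of -0.069 did not pass the test (adjusted p = 0.44).

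The small membrane subunits of complex V, which hold ATP synthase dimers together and shape the cristae, had the lowest median of any role, -0.45, with 4 of 5 lower. Atp5mpl measured 10.24, 10.40 and 10.52 in controls and 9.86, 9.90 and 9.94 in mutants (change -0.48, SE 0.075, adjusted p = 0.0029). Atp5k, subunit e, measured 8.56, 8.64 and 8.76 in controls and 8.14, 8.12 and 8.26 in mutants (change -0.48, SE 0.068, adjusted p = 0.0019). Atp5l, subunit g, measured 10.49, 10.73 and 10.86 in controls and 10.22, 10.23 and 10.27 in mutants (change -0.45, SE 0.090, adjusted p = 0.010). The 3 genes left mutants at 71.5%, 71.9% and 73.2% of control. Atp5j2, subunit f, fell by 0.24, and Atp5md (DAPIT) had a change of -0.25 that did not pass the test (adjusted p = 0.12).

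The peripheral stalk that joins head and membrane had 1 of 4 genes lower, Atp5pb (subunit b), which fell by 0.29. A further probe set of Atp5pb had a change of -0.24 and was not called (adjusted p = 0.092). Atp5h (subunit d), Atp5o (OSCP) and Atp5j (F6) had changes of -0.26, -0.22 and -0.047. The 3 genes of the c-ring, the rotor that protons drive, encode the same mature protein behind different import signals. Atp5g3 fell by 0.29 (SE 0.074, adjusted p = 0.029), from 11.65, 11.84 and 11.87 to 11.51, 11.41 and 11.56. Atp5g2 had a change of -0.16 (adjusted p = 0.19) and Atp5g1 a change of -0.036 with an interval from -0.19 to 0.11. Differences between these genes were not tested.

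**Figure D4:**
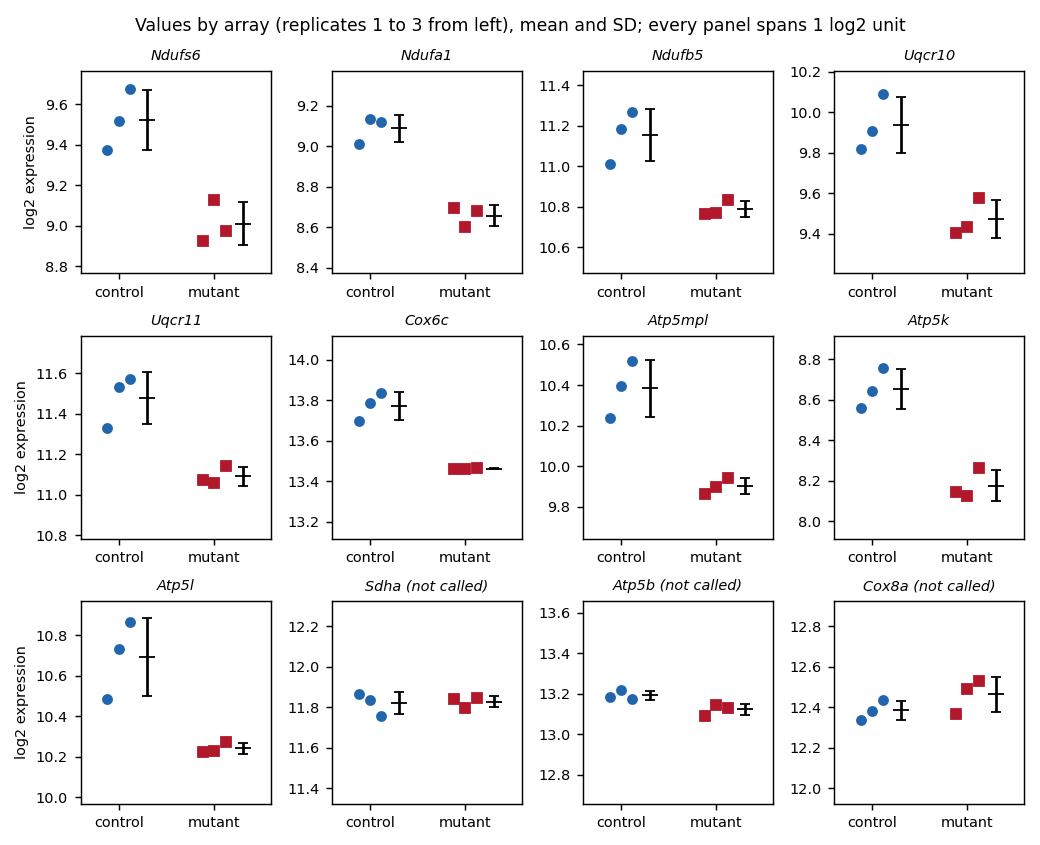
Log2 expression in each array for the 9 genes called lower with every array left out in turn and for 3 genes not called (Sdha, Atp5b and Cox8a), with the mean and SD of each group beside the points. Every panel spans 1 log2 unit, so distances can be compared between panels, and levels cannot. In the 9 lower genes no mutant reaches the lowest control.

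Many of these genes are known to have near-identical copies in the genome, and a probe cannot tell such copies apart, so their values are uncertain. The 90 genes had 115 probe sets with 1 symbol, and 17 genes had several. Of the 25 probe sets not used, all had a change below 0, 12 were called lower and 0 higher. In Cox7a2l, Uqcrb and Ndufab1 a further probe set was called where the one used was not, and in Ndufc1, Ndufa11 and Atp5pb the one used was called and the further one was not. For Atp5l the 5 further probe sets lay between -0.48 and -0.43, against -0.45 for the one used, and the further probe set of Cox6c lay at -0.29. Cox7c, Ndufb4 and Ndufb4b, and the pseudogene Ndufs5-ps, appeared only on probe sets with several symbols and were not counted.

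The shift was set beside other gene groups of the same arrays. Of all genes 5.93% were lower, and of those at or above a mean signal of 9.05, 10.9%. Genes of cytosolic ribosomal proteins, which are no part of mitochondria, were taken by symbols that start with Rpl or Rps. This also takes in related genes and pseudogenes, such as Rps19bp1 and Rps19-ps3. Of the 65 genes, 9 were lower (13.8%) and 1 higher, with a median change of -0.19, the same as the respiratory chain. Their array means ran the same way, with -0.014, 0.071 and 0.20 in controls 1 to 3 and -0.12, -0.091 and -0.041 in mutants, and control 1 was the lowest control for 75.4% of them. Without control 1, 34 of them were lower, and without mutant 1 only 1 was. Every mutant array lay below every control array for 40% of the ribosomal genes, against 62.2% of the respiratory chain genes. Rps20 fell by 0.36 and Rps3a1 by 0.48, and Rpl22 rose by 0.27. Mitochondrial ribosomal proteins, which translate the subunits from mitochondrial DNA, had 9 of 77 lower (11.7%) and 1 higher. Their median change was -0.11. Without control 1, 17 were lower, and the lowest count over the arrays left out was 3. Mrpl18, Mrpl41 and Mrpl40 fell by 0.39, 0.39 and 0.25.

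Markers of neighbouring cell types moved with the groups in part. The summed linear signal of 8 astrocyte markers lay between 6482 and 7465 in controls and between 8183 and 9092 in mutants, with Slc1a2 and Gfap higher. The other 6 astrocyte markers were not called, and the median change of the 8 was 0.097. It was 0.28 against control 1 alone and 0.018 against controls 2 and 3. The summed signal of 8 microglia markers lay between 1075 and 1539 in controls and between 1009 and 1168 in mutants, with 1 of 8 called lower (Tmem119) and control 1 the lowest control. The median change of the microglia markers was -0.26, and 0.025 against control 1 alone. The summed signal of 7 oligodendrocyte markers lay between 2551 and 2759 in controls and between 2309 and 2638 in mutants. Of these 7 markers 0 were called, 3 were lower at an unadjusted limma p under 0.05, and the median change was -0.13. Interneuron markers summed to 3483 to 4109 in controls and 3347 to 3542 in mutants. Of these 8 markers Gad1 was lower, 5 had a change above 0, and the median change was 0.054. Endothelial markers summed to 630 to 722 in controls and 693 to 866 in mutants. Of these 7 markers Flt1 was higher, 6 had a change above 0, and the median change was 0.12. The 8 markers of pyramidal and mossy cells summed to 3010 to 3180 in controls and 3300 to 3442 in mutants. Of the last, Grik4 and Wfs1 were higher and Fibcd1 was lower, 5 of 8 had a change below 0, and the median change was -0.13, so the sum and the median differ in sign. The 7 granule cell markers summed to 17017 to 17594 in controls and 10532 to 11288 in mutants. The paper names desmoplakin (Dsp), 1 of these 7, as a direct target of Bcl11b, so this sum is not independent of the deleted gene. Among the 7, Prox1 was not called and Tdo2 was higher. The part of any of these cell type markers in the change of the respiratory chain genes was not tested. In such samples fewer cells of a type and less RNA per cell cannot be told apart.

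**Figure D5:**
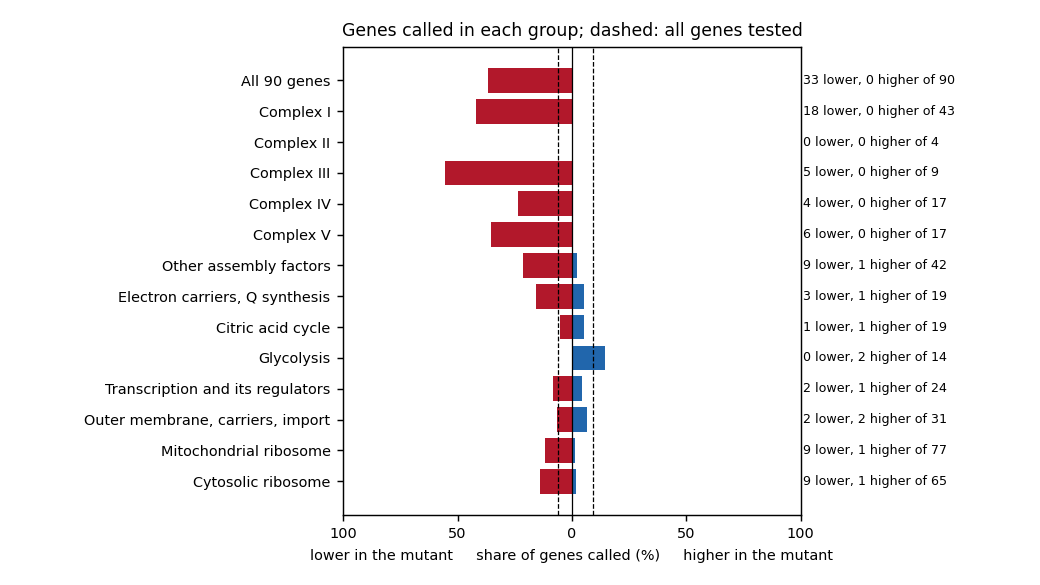
Share of genes called lower (red, to the left) and higher (blue, to the right) in the mutant for the respiratory chain, each complex and other gene groups, with the counts at the right. Dashed lines mark the shares over all genes tested, 5.93% lower and 9.23% higher. Among the complexes, III reaches furthest to the left at 55.6%, followed by I at 41.9% and V at 35.3%.

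Assembly factors that the symbol rule does not take gave 9 lower (21.4%, against 5.93% of all genes) and 1 higher of 42 genes. Their median change was -0.044. Over the arrays left out, 2 to 11 were lower and 0 to 5 higher, with 11 and 5 without control 1. Sdhaf1, which matures the iron-sulphur subunit of complex II, fell by 0.39. Cox14 (complex IV) fell by 0.38, Uqcc2 (complex III) by 0.39 and Tmem70 (complex V) by 0.24, and Ecsit, Timmdc1 and Foxred1 (complex I) by 0.28, 0.26 and 0.26. Coa5 rose by 0.22. Each complex thus had at least 1 lower assembly factor, while most of these genes were not called.

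Among electron carriers and enzymes of ubiquinone synthesis, 3 of 19 were lower (15.8%, against 5.93% of all genes) and 1 was higher. Their median change was 0.014, and -0.054 against control 1 alone. Over the arrays left out, 1 to 2 were lower and 0 to 3 higher, with 2 and 3 without control 1. Cycs, which encodes cytochrome c, the carrier between complexes III and IV, measured a mean of 12.63 in controls and 12.32 in mutants (change -0.31, SE 0.050, limma adjusted p = 0.0039). Etfa and Gpd2, which feed electrons to ubiquinone from fatty acid oxidation and from glycerol phosphate, fell by 0.22 and 0.19, and Coq3, a methyltransferase of ubiquinone synthesis, rose by 0.25. In the citric acid cycle 1 of 19 genes was lower (Dld, a shared subunit of its dehydrogenases, by 0.26) and 1 was higher (Suclg2, by 0.21). The lower share, 5.26%, was close to the 5.93% of all genes. The median change of the cycle was -0.082. Over the arrays left out, 0 to 2 of its genes were lower and 0 to 1 higher, with 2 and 1 without control 1. In glycolysis 0 of 14 genes were lower and 2 were higher, with Pkm, pyruvate kinase, up by 0.23 and Hk2 up by 0.27. At an unadjusted limma p under 0.05, 2 glycolytic genes were lower and 3 higher, against 2312 and 3107 of all 19938 genes. Without control 1 the counts of called glycolytic genes were 0 lower and 2 higher. The count of higher genes was 0 without control 3, mutant 2 or mutant 3, and 1 without control 2 or mutant 1, and 1 gene was lower without control 3. A difference between these pathways and the respiratory chain was not tested.

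Of 24 genes of mitochondrial transcription, replication and their regulators, 2 were lower (8.33%, against 5.93% of all genes) and 1 was higher. Ppargc1a, the coactivator of nuclear respiratory genes, fell by 0.30 (SE 0.073, adjusted p = 0.026), from a mean of 9.36 to 9.07, and Tefm, the elongation factor of mitochondrial transcription, fell by 0.42. Esrrb, an orphan nuclear receptor, rose by 0.42 from a mean signal of 5.41. Nrf1, Gabpa and Yy1, whose motifs are described above, were not called, with changes of -0.015, -0.0125 and 0.10. Ppargc1b, at -0.185, and Pprc1, at 0.255, were not called either. Whether any regulator has a part in the change of the respiratory chain genes was not tested. The median change of the 24 genes was -0.078. Over the arrays left out, 0 to 4 were lower and 0 to 4 higher, with 4 and 4 without control 1. Among 31 genes of the outer membrane, of carriers and of protein import, 2 were lower (6.45%) and 2 higher, with a median of -0.11. The lower share was close to the 5.93% of all genes. Without control 1, 9 were lower and 3 higher, and over the other arrays left out 0 to 1 were lower and 2 were higher. Mcu, the pore of the calcium uniporter, rose by 0.58 (SE 0.057, adjusted p = 0.00026), the largest change among the mitochondrial genes described, and Slc25a22, a glutamate carrier, rose by 0.44. Tomm22, an import receptor, and Slc25a5, an ADP and ATP carrier, fell by 0.26 and 0.20. The 13 protein genes of mitochondrial DNA were not analysed here.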

How the data were processed

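The deposited values are log2 expression of 35556 probe sets on 6 arrays. Per the labels, the authors used Affymetrix Expression Console and RMA, which corrects background, equalizes the distributions of the arrays and summarizes each probe set, so a shift shared by every gene would not be seen. Tool versions and the probe design's build are not stated. GEO's platform annotation gave 1 symbol to 21789 probe sets and several to 1621, and 12146 were not listed. Each gene was read from its probe set of highest mean, without a filter on signal. The test was limma's (lmFit, then eBayes, without covariates; limma 3.58.1 under R 4.3.3), with p-values adjusted by Benjamini-Hochberg across 19938 genes at a threshold of 0.05. The fit was tested on simulated data. Summed signals add linear values. Members and lists were chosen with earlier results of these data known. Named genes were the 30 lower genes of smallest p, the extremes of each complex, tissue isoforms and up to 3 genes of smallest p per list. Uqcc2, Timmdc1, Tmem70, Foxred1 and the other genes named, not called ones included, were chosen after their values were seen. Deviations of same-numbered arrays correlated at 0.16, -0.033 and 0.12, so arrays were not paired. Alternatives were the methods' t-test, other priors, weights, normalizations, filters, probe sets and thresholds, a replicate block and leaving out each array. Control 1 alone and further probe sets were added after seeing the data.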

Additional observations from a re-analysis of the deposited data

How the results depend on the processing

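The medians of all 90 genes and of complexes I to V stayed below 0 in the alternatives run. No called gene changed sign, and 0 of the 90 genes were higher in each. Among genes not called, signs were followed only in the isoform families, where Atp5g1, Cox4i2, Cox7b2 and Ndufa4l2 changed sign in some. Other genes near 0 may have changed sign too. The median over all genes was -0.0027, and 0.015 after renewed quantile normalization. The medians near 0 of the tissue forms and of the electron carriers turned negative against control 1 alone. Against 33 lower genes, the methods' t-test gave 45 at an unadjusted 0.05 and 7 after Benjamini-Hochberg adjustment. Array weights gave 54, a threshold of 0.01 gave 8 and one of 0.1 gave 42, and leaving out 1 array gave 10 to 49. Of all genes, the unadjusted t-test called 10% lower, the adjusted t-test 2.24%, and array weights 11.9%. With the replicate number as a block the count was 33, of which 30 were among the 33 without the block, though the numbers did not qualify as pairs. Against control 1 alone, the median change was -0.10 for all 90 genes, -0.13 for complex I, -0.061 for complex II, -0.15 for complex III and -0.084 for complex V, and that of complex IV was -0.065. Renewed quantile normalization gave -0.051 for complex IV. With 1 array left out, the median lay between -0.049 and -0.10 for complex IV and between -0.14 and -0.28 for complex V. The causes of these differences were not tested. In the other alternatives the count of lower genes was 31 to 34. Single genes were compared with the main fit for called genes, isoform families, genes named from the lists and Bcl11b. In 911 comparisons the status was the same, which includes genes not called in either fit. A call was lost in 197 and gained in 15. The genes called in every alternative with an adjusted p were Ndufa1, Cox6c and Atp5k, 3 in all. The number of arrays and the absence of a detection measure limit what can be said of dim genes.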
